A study of Homo sapiens with 33 samples.

Results

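The long noncoding RNAs MALAT1, NEAT1, TUG1, MIAT, HOTAIR and OIP5-AS1 were described in K562 cells, an erythroleukemia cell line. The 6 genes were taken by symbol from the 58293 entries of the FPKM table of the input RNA, where they fill 7 lines because MALAT1 has an additional short entry. Every EZH2 RIP-seq fragment inside the span of 1 of these genes was then taken from the 900 listed fragments, and 1 fragment, in MALAT1, met this rule. EZH2 is the enzyme of the Polycomb repressive complex PRC2, and RIP-seq sequences the RNA that is pulled down with it. The fragments were called from that pull-down against an IgG control, and the pull-down signal itself was not analysed here.

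The cells of all 5 libraries were wild type K562, without the LEVER knockout or knockdown made elsewhere in the study. The input RNA is labelled as the input of the RIP-seq, which used nuclei of fixed cells, and the sources used here do not say at which step the input was taken. The other 4 libraries were cytoplasmic RNA, nuclear RNA from nuclei spun through a sucrose cushion, nuclear polyA+ RNA bound to poly(A) beads, and nuclear polyA− RNA left unbound. Ribosomal RNA was removed from the fractions, and the libraries kept the strand. Each condition was 1 library, so no difference between fractions has a replicate check and no test between conditions was possible. Fewer cells with an RNA and less of that RNA per cell cannot be told apart in bulk samples.

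Long noncoding RNAs are transcripts that are not known to be translated, and several of them act inside the nucleus. MALAT1 accumulates at nuclear speckles, bodies rich in splicing factors, and NEAT1 is the scaffold of paraspeckles, bodies built by RNA-binding proteins around that RNA. MALAT1 and the long form of NEAT1 end where RNase P cuts off a small tRNA-like RNA, which leaves an encoded A-rich end that folds with U-rich stretches upstream into a triple helix. MIAT, also called Gomafu, carries repeats of the branch point sequence that splicing factor SF1 binds. HOTAIR is transcribed from the HOXC cluster and is known for its binding to PRC2, TUG1 has been linked to Polycomb proteins, and OIP5-AS1, or Cyrano, carries a long pairing site for the microRNA miR-7.

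The sequences of the A-rich ends are shown first, since polyA+ and polyA− RNA are compared for MALAT1 and its RNA ends in encoded A. Whether this end bears on the polyA+ reads of MALAT1 was not tested. The 110 bases before the small RNA lie at chr11:65506007-65506116 for MALAT1 and chr11:65445431-65445540 for NEAT1, on the + strand of GRCh38 (hg38), with runs of 5 or more A or 4 or more T in capitals.
MALAT1 3′ end: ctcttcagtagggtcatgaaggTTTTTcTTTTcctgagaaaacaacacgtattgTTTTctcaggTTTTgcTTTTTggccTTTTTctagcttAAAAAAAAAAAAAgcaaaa
NEAT1 3′ end: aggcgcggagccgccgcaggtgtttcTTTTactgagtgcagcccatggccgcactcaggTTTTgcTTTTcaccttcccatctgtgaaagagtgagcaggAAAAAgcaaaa
The small RNAs themselves, listed as mascRNA-menRNA, follow at chr11:65506117-65506173 (57 bases) and chr11:65445541-65445598 (58 bases), and no capitals are used in them.
mascRNA: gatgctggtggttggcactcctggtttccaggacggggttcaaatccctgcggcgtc
menRNA: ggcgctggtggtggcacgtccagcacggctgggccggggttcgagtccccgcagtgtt
The last 20 bases before mascRNA held 17 A, the most of any 20 bases in the MALAT1 span. The last 20 bases before menRNA held 11 A. In the NEAT1 span, 401 windows of 20 bases held at least as many, and the most in 1 window was 20 A. Each end carried T-rich runs upstream of its A-rich stretch.

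MIAT and OIP5-AS1 carry the sequences their partners recognise. The motif TACTAAC, the branch point sequence known for SF1, occurred 7 times on the transcribed strand of MIAT and 1 time on the opposite strand. Of 8670 consecutive regions of the same length, 30048 bp, cut from lncRNA entries of the table, 2 held at least 7 copies on the transcribed strand (0.0231%), MIAT itself included, and 65.5% held at least 1 copy on the opposite strand. The stretch with the most copies, chr22:26671419-26671568 on the + strand of GRCh38, is shown with the 3 copies in capitals.
MIAT repeat: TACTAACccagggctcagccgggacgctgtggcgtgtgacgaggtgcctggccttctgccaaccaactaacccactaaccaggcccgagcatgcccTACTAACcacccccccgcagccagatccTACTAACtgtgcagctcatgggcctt
The microRNA hsa-miR-7-5p is given from RefSeq (GRCh38.p14) with its seed, bases 2 to 8, in capitals, at chr9:83969811-83969834 on the − strand.
hsa-miR-7-5p: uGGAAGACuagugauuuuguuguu
The seed match GTCTTCC occurred 4 times on the transcribed strand of OIP5-AS1 and 0 times on the opposite strand. Of 10497 consecutive regions of 25748 bp cut from lncRNA entries, OIP5-AS1 included, 11.5% held at least 4 matches on the transcribed strand, and 80.5% held at least 1 on the opposite strand. The 4 sites are shown on the + strand of GRCh38, with the seed match and the longest run upstream that pairs with the rest of miR-7 in capitals, in the order chr15:41294482-41294511, chr15:41298407-41298436, chr15:41300570-41300599 and chr15:41305850-41305879.
OIP5-AS1 site 1: tacgcagatacctgggggAAgaGTCTTCCc
OIP5-AS1 site 2: gacttcagggtttaaaaAAAATGTCTTCCa
OIP5-AS1 site 3: taagAACAACAAAATCACcaatGTCTTCCa
OIP5-AS1 site 4: tgtcatatcctgAATatagtttGTCTTCCc
The third site had an upstream pairing run of 14 bases, whereas the runs of the other sites were 2, 5 and 3 bases long. This site lay in an exon of 12 OIP5-AS1 transcripts of GENCODE 44. The other exonic sites were the second, in 24 transcripts, and the fourth, in 4 transcripts, and the first was in no annotated exon. A match is a description of the sequence and does not show binding.

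FPKM counts sequenced fragments per kilobase of transcript, scaled to the mapped fragments of the library, so it is a level per length. It can be set side by side between long genes, but it is less certain for entries that are short or overlap others. In the input RNA, MALAT1 had an FPKM of 1433 with bounds of 1387 and 1478, the highest of 14238 lncRNA entries and rank 3 of all entries. NEAT1 had an FPKM of 86.3 (bounds 79.45 to 93.1), rank 10 among lncRNA entries and rank 329 of all. TUG1, at 24.1 (21.72 to 26.5), and OIP5-AS1, at 23.1 (20.49 to 25.7), lay above 97% and 96.8% of all entries. MIAT had an FPKM of 0.53 and HOTAIR one of 0.0261, and the lower bound of each was 0. The bounds are those the authors deposited for this 1 library and hold no spread between cultures.

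The order of the levels was thus MALAT1, NEAT1, TUG1, OIP5-AS1, MIAT and HOTAIR, but not every neighbouring pair was separated by its bounds. The FPKM of MALAT1 was 16.6 times that of NEAT1, and 14.9 times when the nearest bounds were used. NEAT1 was 3.58 times TUG1, with nearest bounds 2.99-fold apart. The levels of TUG1 and OIP5-AS1 had a ratio of 1.05 and overlapping bounds. OIP5-AS1 lay above MIAT without overlap, by 14.4-fold between nearest bounds. MIAT and HOTAIR, whose upper bounds were 1.42 and 0.425, overlapped and are not told apart from 0. The upper bound lay 3.17% above the FPKM for MALAT1, 7.93% for NEAT1 and 10% to 11.3% for TUG1 and OIP5-AS1. For MIAT it lay 168% above the FPKM, and for HOTAIR 1530%.

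**Figure D1:**
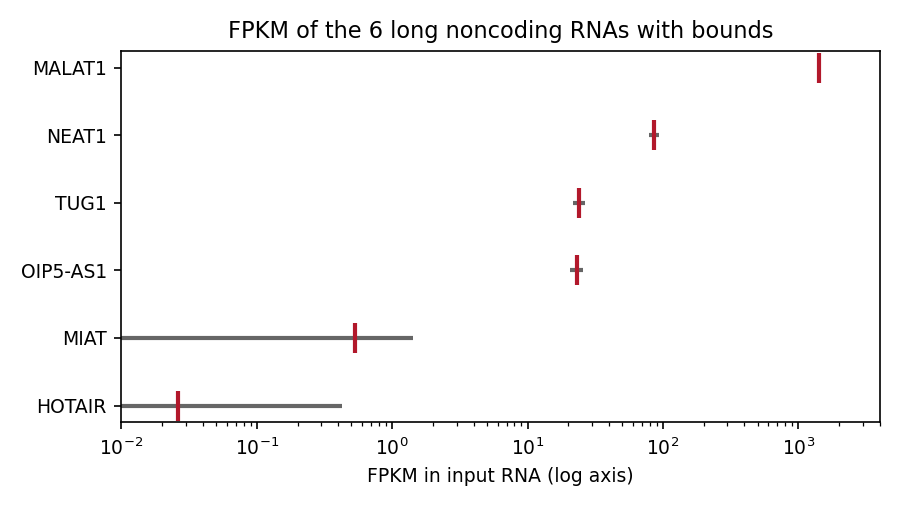
FPKM of the 6 long noncoding RNAs in the input RNA (1 library) on a log axis. Red ticks are the FPKM values, grey lines run between the deposited lower and upper bounds, and the lines of MIAT and HOTAIR reach the left edge because their lower bounds are 0. MALAT1 stands at 1433, NEAT1 at 86.3, TUG1 and OIP5-AS1 side by side at 24.1 and 23.1.

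With a threshold of 1, 4 of the 6 genes (66.7%) passed, against 21.8% of all entries and 8.72% of lncRNA entries. The same 4 had a lower bound above 0. The gene spans on GRCh38 were chr11:65497762-65506516 for MALAT1, chr11:65422774-65445540 for NEAT1, chr22:30970677-30979395 for TUG1, chr15:41283990-41309737 for OIP5-AS1 and chr22:26646428-26676475 for MIAT, all on the + strand, and chr12:53962308-53974956 for HOTAIR on the − strand. GENCODE 44 types 5 of them as lncRNA and TUG1 as protein-coding.

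The entries around and inside these genes were mostly at or near 0. Of 22 shorter entries inside the 6 spans, 15 were listed at exactly 0, among them the additional MALAT1 entry of 95 bp and the 57 bp entry of mascRNA. The menRNA entry, next to NEAT1, was also listed at 0. A single one had an FPKM of at least 1, the 237 bp entry TUG1_3 at 15.9 (8.02 to 23.8). The entries inside the spans share their bases with the longer gene, so how reads were divided between them is uncertain. The paper selected its RIP-seq and fraction libraries by size. Whether RNAs as short as mascRNA and menRNA were kept was not tested, so a listed 0 does not show that they are absent. Beside NEAT1, the coding gene FRMD8 had an FPKM of 2.52 (1.45 to 3.6). On the far side of MALAT1, SNRPGP19 was listed at 0, as was CMB9-22P13.2 between NEAT1 and MALAT1.

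HOTAIR lay among neighbours whose levels were near 0. The homeobox genes HOXC11, which overlaps HOTAIR on the opposite strand, and HOXC12 had FPKM values of 0.0627 and 0.0559, and HOXC-AS3 had 0.0445, each with a lower bound of 0. MIAT shares its 3′ part with MIATNB, which runs on the same strand and had an FPKM of 4.27 (2.48 to 6.05), above the upper bound of MIAT. The nearest entries outside MIAT were ISCA2P1 at 0.578 and LINC01422 at 0.0303. OIP5-AS1 overlaps OIP5, a kinetochore gene on the opposite strand, at 6.94 (5.51 to 8.38), and lies between CHP1 at 10 and NUSAP1, a mitotic spindle gene, at 35.8. TUG1 lies beside MORC2, which had 10.3, and RP3-412A9.17, which had 0.148.

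The genes for proteins of the bodies that MALAT1 and NEAT1 mark were all detected in the input RNA, and none reached the RNA level of MALAT1. No protein was measured. All 17 genes of nuclear speckle proteins had an FPKM of at least 1, with a median of 53.6. They were led by the splicing factor genes SRSF1 at 117, SRSF3 at 108 and SRRM2 at 103, with THRAP3 (22.3) and U2AF2 (24.5) lowest. All 15 genes of paraspeckle proteins passed as well, with a median of 49.2. HNRNPH1 (178), SFPQ (159), a core paraspeckle protein, and HNRNPK (129) were highest, and PSPC1 (13.8) and MATR3 (8.59) lowest. MATR3 has a shorter entry at 69.1 that overlaps the entry used, so its level is uncertain. In each of these lists, 4 genes had an FPKM above that of NEAT1, but not all of them were clear of its bounds.

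The genes of the enzymes that cut the MALAT1 end were lower. All 12 genes of this list passed 1, with a median FPKM of 8.52. RPPH1, the RNA of RNase P, stood at 83.2 in its longer entry and 132 in its shorter one, followed by the RNase P protein gene POP4 at 16.4 and ELAC2, which trims tRNA 3′ ends, at 15. RPP14 (4.22) and RPP25 (1.31) were lowest.

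Of the 6 splicing factors that partner MIAT, 5 had an FPKM of at least 1, although MIAT itself was near 0. SRSF1 (117), the branch point protein SF1 (76.6) and QKI (66.8) were highest, CELF2 stood at 6.45, and CELF3 was listed at 0. Of the 7 partners of OIP5-AS1, 3 passed 1, namely the Argonaute gene AGO2 at 30.8, ELAVL1, whose product HuR binds RNA, at 19.7 and OIP5 at 6.94. The genes MIR7-1, MIR7-2 and MIR7-3 were listed at 0, and CDR1-AS, which carries many miR-7 sites, was at 1.89e-05. Libraries of this kind do not measure a mature microRNA. All 11 genes of chromatin proteins linked to HOTAIR and TUG1 passed, with a median FPKM of 24.9. RBBP4, a histone-binding subunit of PRC2, had an FPKM of 71.8, EZH2 one of 41.6 and HDAC2, a histone deacetylase, one of 40.2, while JARID2, an accessory subunit of PRC2, had 6.26.

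Other lncRNAs set the scale for the 6 genes. The 12 lncRNAs that host small nucleolar RNAs had a median FPKM of 50.6, with GAS5 at 155, SNHG3 at 110 and SNHG1 at 88.4 highest and SNHG7 (14.1) and SNHG15 (7.42) lowest. In this list 4 genes had an FPKM above that of NEAT1, not all of them clear of its bounds, and none lay above MALAT1. Of 19 other known lncRNAs, 13 passed 1, with a median of 11.6, led by MIR17HG, the host of a microRNA cluster, at 49.4, NORAD at 31.8 and DANCR at 26.5. None of these 19 reached NEAT1, and 4 lay above TUG1. HOTAIRM1, from the HOXA cluster, and HCP5 were lowest, at 0.12 and 0.026. The second highest lncRNA entry of the whole table, RNU11, the small nuclear RNA of the U11 particle, had an FPKM of 623 over 131 bp.

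**Figure D2:**
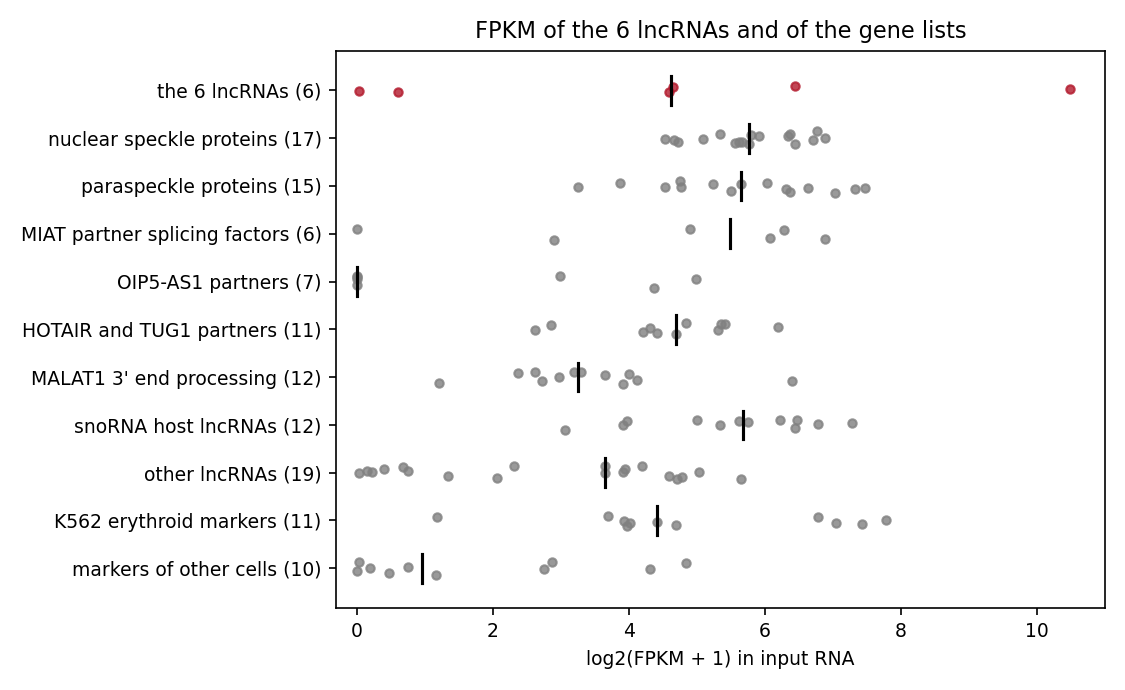
Input RNA levels as log2(FPKM + 1) of the 6 lncRNAs (red) and of the genes of each list (grey), 1 point per gene and 1 library, with the number of genes in brackets and black bars at the medians. MALAT1 is the rightmost point of all, at 10.49, and HOTAIR (0.04) and MIAT (0.61) lie at the left edge.

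The cell type label was checked against its markers. All 11 erythroid markers had an FPKM of at least 1, led by HBG2 (218), the transferrin receptor TFRC (171) and HBE1 (132), with HBZ (12) and EPOR (1.28) lowest. Of 10 markers of other cells, 5 passed 1. EPCAM (27.9) and KRT19 (18.8), epithelial markers, and CD3D (6.29) were highest, while MS4A1 was at 0.0187 and CD14 was listed at 0. Their part in the lncRNA levels was not tested.

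The 1 fragment in the 6 genes lay in MALAT1 at chr11:65499308-65501247 on GRCh38. It was 1940 bp long and covered bases 1547 to 3486 of the 8755 bp MALAT1 entry, 22.2% of its span. All of it was exonic in GENCODE 44, where 42 of 66 MALAT1 transcripts had an exon in it and 7 covered it whole. The antisense gene TALAM1 overlapped 1936 of its bases (99.8%) with an exon. The strand setting of the counting is not given in the sources used here, so reads of MALAT1 and TALAM1 cannot be told apart.

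Read on the + strand, that of MALAT1, the fragment was rich in purines. Its bases were 36.1% A, 26% G, 26% T and 11.9% C, that is 62.1% purine, against 52.1% in the rest of MALAT1. The whole spans of the other 5 genes ranged from 47.9% (NEAT1) to 50.7% (MIAT). Among 698 other listed fragments whose genes lie on 1 strand, the median was 52.8% and the range 38.3% to 67.4%. Of these, 8 reached the value of MALAT1. The MALAT1 fragment itself would not meet this rule, because TALAM1 overlaps it on the opposite strand. The 62.1% therefore holds for the MALAT1 strand alone. The A content of the MALAT1 fragment was less unusual, above that of 77.2% of these other fragments. The 100 bases of the fragment with the most purines, 81 of 100, lie at chr11:65499633-65499732 on the + strand and are shown with runs of 6 or more A or G in capitals.
MALAT1 purine stretch: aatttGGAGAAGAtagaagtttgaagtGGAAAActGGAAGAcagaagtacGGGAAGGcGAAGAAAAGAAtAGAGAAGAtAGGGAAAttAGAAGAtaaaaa
The purines came in several runs with other bases between them.

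**Figure D3:**
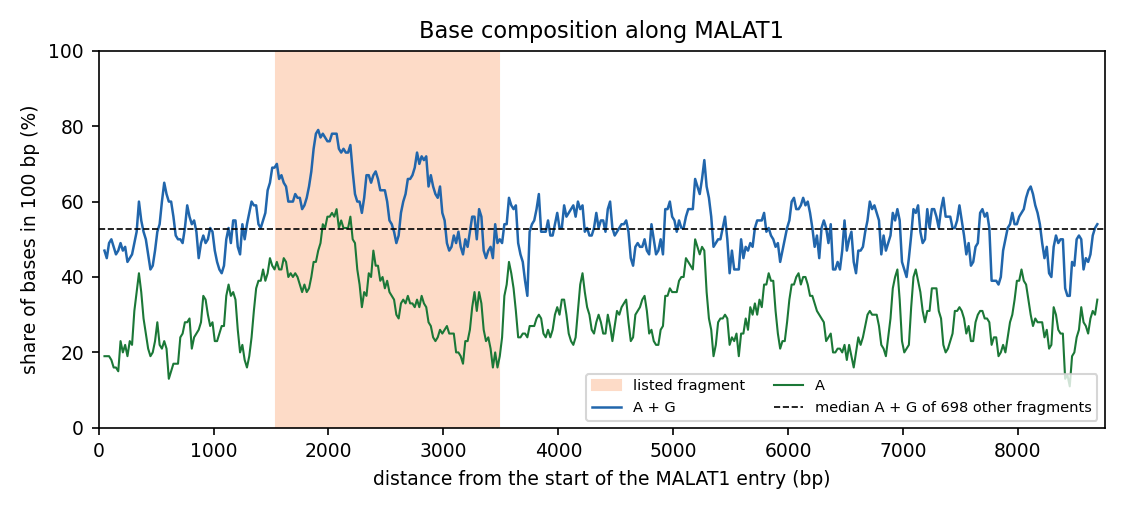
Share of A + G (blue) and of A (green) in windows of 100 bp along the MALAT1 entry, by distance from its start in bp, with the listed fragment shaded. The dashed line is the median A + G share of the 698 other fragments, 52.8%, and the highest windows lie in the shaded fragment, which runs from 1547 to 3486 bp.

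The MALAT1 fragment held more reads than any other listed fragment in each of the 4 libraries. Its count was 1228 reads for the cytoplasm, 4778 for whole nuclear RNA, 10766 for polyA+ RNA and 6584 for polyA− RNA of the nucleus. The next fragment in each library held 238, 2401, 3739 and 2143 reads, so MALAT1 stood 5.16-fold, 1.99-fold, 2.88-fold and 3.07-fold above it. The polyA+ count was the highest of the 4, and the cytoplasmic count the lowest.

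Per length, the lead over the highest other fragment was larger in the 3 nuclear libraries and smaller in cytoplasmic RNA. The fragment had 633 reads per kb in cytoplasmic RNA, where the highest other fragment had 348 and the median was 1.12. In nuclear RNA it had 2460 against 478 for the highest other fragment and a median of 27.7. In polyA+ RNA the values were 5550, 590 and 7.27, and in polyA− RNA 3390, 377 and 28.8. The MALAT1 fragment therefore ranked 1 per kb in every library as well. In cytoplasmic, nuclear and polyA− RNA the highest other fragment was the same one, chr7:133356505-133356573. It was 69 bp long and held 24, 33 and 26 reads, so the leads per length in these libraries rest on a short fragment with few reads.

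This single fragment took a large part of all reads on the listed fragments. Its share was 18.6% (95% Wilson interval 18.3 to 18.9) in polyA+ RNA and 15.5% (14.7 to 16.3) in cytoplasmic RNA. It was lower, 6.21% (6.06 to 6.36), in polyA− RNA and 4.52% (4.4 to 4.65) in nuclear RNA. The intervals cover counting error only. The denominators, 57985, 7929, 106051 and 105661 reads, are sums over the listed fragments and not the depth of the libraries.

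MALAT1 had more nuclear than cytoplasmic reads, but by less than most fragments. The ratio of nuclear to cytoplasmic reads, as counted, was 3.89 (3.65 to 4.15). This counts as higher in nuclear RNA by at least 2-fold, as did 88.4% of the 900 fragments with counts as deposited. A ratio against fewer than 3 cytoplasmic reads was computed against 3, which makes it a lower bound. Over 854 fragments with at least 3 reads in 1 or both libraries the median ratio was then 13, with 10% to 90% limits of 2.67 and 39.6, and 125 (14.6%) had a lower ratio than MALAT1. Over the 433 with at least 3 reads in each library the median was 16.6. The totals of the libraries are not in the files. Where the libraries were scaled to equal sums over the listed fragments, the ratio of MALAT1 turned to 0.292, on the cytoplasmic side with 224 fragments in all (24.9%), while 655 (72.8%) were higher in nuclear RNA. With an equal median ratio it was 0.235, and 608 fragments (67.6%) were higher in nuclear RNA. Both scalings take the listed fragments as equal in both libraries, although most had more nuclear reads as counted. A ratio below 1 is therefore relative to these fragments and does not place MALAT1 in the cytoplasm. The paper scaled to all mapped reads and reported most of its fragments as higher in nuclear RNA. A common scale does not change which fragments lie below MALAT1, but the floor does, since 421 of the 854 fragments had fewer than 3 cytoplasmic reads. The share below MALAT1 was 7.49% with a floor of 1 read and 38.5% with a floor of 10.

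In the nucleus, MALAT1 had more polyA+ than polyA− reads. The ratio of polyA− to polyA+ reads was 0.612 (0.593 to 0.631), which is 1.64 times (1.59 to 1.69) as many polyA+ reads. As counted, the excess is below 2-fold. Strictly more polyA+ reads were found in 12.1% of the 900 fragments and a polyA+ excess of at least 2-fold in 3.78%, whereas 64.3% had at least 2-fold more polyA− reads. The median ratio of 852 fragments was 3.37 (10% to 90% limits 0.846 and 11.7), and 49 of them (5.75%) lay below MALAT1. Over the 748 with at least 3 reads in each library the median was 3.25. The call at 2-fold changed with the scale. With equal sums MALAT1 had 2.99 times as many polyA+ reads, and 244 fragments (27.1%) had more polyA+ reads. With an equal median ratio it had 5.31 times as many, and 392 fragments (43.6%) had more polyA+ reads.

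**Figure D4:**
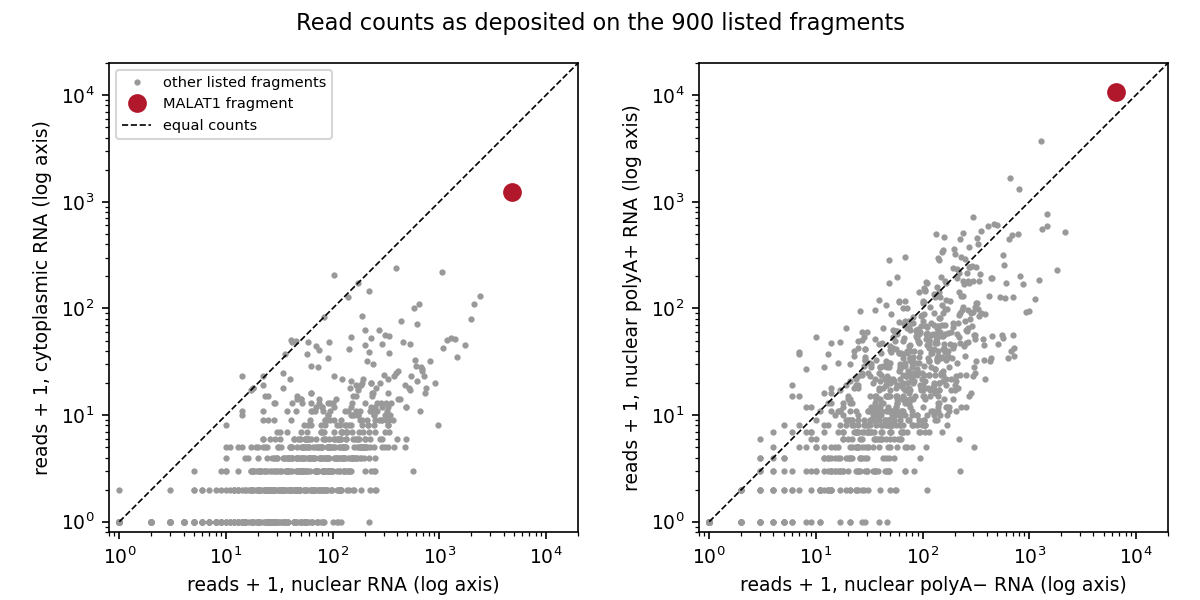
Reads + 1 of the 900 listed fragments on log axes, nuclear against cytoplasmic RNA (left) and nuclear polyA− against polyA+ RNA (right), counts as deposited and 1 library per axis. The MALAT1 fragment (red) lies below the dashed line of equal counts on the left (4778 nuclear, 1228 cytoplasmic) and above it on the right (6584 polyA−, 10766 polyA+).

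Most listed fragments are intronic, and MALAT1 was also set beside the exonic ones. The other fragments with at least 50% of their length in exons numbered 42, and 20 of them had more polyA+ than polyA− reads. Their median polyA− to polyA+ ratio was 1.38 and their median nuclear to cytoplasmic ratio 3.73, beside 0.612 and 3.89 for MALAT1. Wholly exonic fragments numbered 31.

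The fragments most like MALAT1 in how their reads were spread over the 4 libraries held far fewer reads. Of its reads, 5.26% were cytoplasmic, 20.5% nuclear, 46.1% polyA+ and 28.2% polyA−. Among 702 fragments with at least 50 reads, the nearest by Euclidean distance of these shares lay in LINC01287, at chr7:153382201-153386291, with 4, 19, 41 and 28 reads in the same order. The next lay in TTI1 (chr20:37993363-37994462, with 5, 21, 50 and 26 reads) and SENP5 (chr3:196908807-196910465, with 33, 89, 172 and 108 reads). The distances were 0.0287, 0.04 and 0.0492, and with these few reads the order of the 3 is not firm.

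A high level in the input RNA did not go with a listed fragment in every one of the 6 genes. NEAT1, TUG1, OIP5-AS1, MIAT and HOTAIR held no listed fragment, also when any shared base counted, so their nuclear or cytoplasmic location was not measured here. The study called more fragments than the 900 used here, and the others were not analysed, so these counts and the shares that follow hold for the 900 alone. The fragment nearest to NEAT1 was the one in MALAT1, 53.8 kb away, and the nearest to MIAT, OIP5-AS1, TUG1 and HOTAIR were 2.74, 4.26, 7.07 and 7.7 Mb away. Of the 10 lncRNA entries with an FPKM of at least that of NEAT1, MALAT1 alone held a fragment. At an FPKM of at least 20, 10 of 47 lncRNA entries (21.3%) held one, against 108 of 2163 entries of all types (4.99%). Over all levels the shares were 0.541% of lncRNA entries and 0.571% of all entries. Over the 77 lncRNA entries that held one, the median was an FPKM of 3.5, and the second highest of them, AC079466.1, had 48.1.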

How the data were processed

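The samples were K562 input RNA and cytoplasmic, nuclear, nuclear polyA+ and nuclear polyA− RNA, with 1 library each, 5 of the 33 samples of the series. The authors trimmed the reads, aligned them by STAR (GRCh38, GENCODE 26), dropped alignments of mapping quality under 20 and took out PCR duplicates. The authors deposited FPKM per gene with bounds for the input RNA, made with cuffdiff. For the fractions, the authors deposited read counts on RIP-seq fragments made with featureCounts, with no normalization. Removal of duplicates by position can also remove separate molecules of an abundant RNA, and its part was not tested.

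The 6 genes and all gene lists were chosen with earlier results of these data known. Of each list, the 3 highest and 2 lowest genes were named, with overlapping and nearest entries of each of the 6 genes and the 3 fragments most alike. The lowest gene of 1 list is not reported here. For a symbol with several entries the longest was used. LINC00657 was not matched by symbol, its current symbol NORAD was. Ratios of reads were computed from counts as deposited, with a floor of 3 reads and exact Clopper-Pearson 95% intervals. A fragment was called at 2-fold. The ratio functions were tested on simulated data. GENCODE 44 and the hg38 sequence gave exons, gene types (98.7% of entries matched by identifier) and bases. The tools were samtools 1.23.1 and Python 3.11.15 with pysam 0.24.0, scipy 1.17.1, numpy 2.4.6, matplotlib 3.10.9 and pandas 2.3.3. Alternatives were other scalings, thresholds, floors, pseudocounts, overlap rules and duplicate entries.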

Additional observations from a re-analysis of the deposited data

How the results depend on the processing

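The nuclear to cytoplasmic ratio of reads in the MALAT1 fragment, 3.89 as counted, turned below 1 under every other scaling. It was 0.292 with equal sums over the listed fragments, 0.235 with an equal median ratio over fragments with at least 3 reads in each library, 0.268 with sums that leave out the 10 fragments with the most reads, and 0.258 with sums that leave out MALAT1. The last scaling was chosen after seeing the data. The polyA− to polyA+ ratio, 0.612 as counted, stayed below 1 at 0.334, 0.188, 0.264 and 0.29 in the same order, so the polyA+ excess passed 2-fold under each of these scalings but not as counted. Each change follows from the scale itself, since the counts are the same. These scalings take listed fragments as equal between the libraries, so the ratios are relative to those fragments. At 4-fold, 0 fragments of MALAT1 were higher in nuclear RNA, against 1 at 2-fold. In polyA+ RNA 1 was higher with strictly more reads and at 1.5-fold, against 0 at 2-fold. The floors cannot touch the MALAT1 counts. Over the listed fragments the median nuclear to cytoplasmic ratio, 13, was 21.6 with a floor of 1 read and 5.3 with one of 10, and the median polyA− to polyA+ ratio, 3.37, was 3.71 and 2.47. These medians were also added after seeing the data.

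The median log2(FPKM + 1) of the OIP5-AS1 partners, 0.0, became -3.32 with a pseudocount of 0.1 and 4.37 over its genes at 0.1 or more. That of the markers of other cells, 0.96, became 0.03 and 1.96, and that of the MIAT partners, 5.49, became 6.08 over genes at 0.1 or more. These changes follow from genes at or near 0. The number of lncRNAs past an FPKM of 1, 4 of 6, was 5 at 0.1, 4 at 10 and 4 by a lower bound above 0. The number of listed fragments, 1, stayed 1 with 50% inside, any base inside and the spans of GENCODE 44.

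No paired analysis was possible because each fraction is 1 library without a replicate number. The depth of the libraries is not known from these files, and the 7929 cytoplasmic reads on all listed fragments leave most fragments with few reads, with a median of 2.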
